A study of Saccharomyces cerevisiae with 14 samples.

Results

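The change in expression after deletion of JHD2 was measured in budding yeast (Saccharomyces cerevisiae) on 6 of the 14 Affymetrix Yeast 2.0 arrays of the series, 3 from a jhd2 deletion strain and 3 from its wild type. The 6 arrays were taken by their titles, and arrays with the same replicate number were treated as a pair. The strain labelled jhd2 deletion carries jhd2::KanMX, in which a drug-resistance cassette takes the place of the gene, and the auxotrophic alleles his3∆1 and le2∆0 (spelled so in the labels) as well as lys2∆0 and ura3∆0. Its wild type carries the same 4 alleles and is labelled TRP+, MET15+ and ADE+. The other arrays compare a strain that overexpresses JHD2 and a strain with SET1 replaced, each with a wild type of its own and 2 arrays in each group. The overexpression strain is labelled (jhd2∆::KanMx)+(JHD2 O/E) with his3-1, leu2-0, lys2-0 and ura3-0. The strain labelled set1::KanMx has met15-0 besides his3-1, leu2-0 and ura3-0. The full genotypes of their wild types are not listed here. The set1 deletion and its wild type differed also in the signal of the marker genes MET17 and LYS2. All cultures were diluted to an optical density at 600 nm of 0.2 and grown at 30 °C for 3 to 5 hours to 0.6 to 0.7. The labels call the replicates biological and do not say whether each came from its own transformant.

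Jhd2 is a JmjC-domain demethylase that removes methyl groups from lysine 4 of histone H3 (H3K4). The same residue is methylated by Set1, the catalytic subunit of the COMPASS complex, and the methylated form marks the promoters of transcribed genes. Loss of the demethylase is known to leave more H3K4 methylation, and the comparison asks which transcripts differ when Jhd2 is missing.

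Signal is given on the linear MAS5 scale of the deposited table. A change is the log2 signal in the jhd2 deletion minus that in the wild type, with the standard error (SE) of a linear model fitted with limma to 5415 genes. The model contains the replicate number as a block, and a gene was called at a Benjamini-Hochberg adjusted p under 0.05. On the 6 arrays the tested genes had a median signal of 538.1 to 614.9. Probe sets for fission yeast (Schizosaccharomyces pombe) served as background, whose 95th percentile was 16.7, 13.1 and 7.77 on deletion arrays 1 to 3 and 9.10, 8.96 and 8.08 on the wild-type arrays. Both arrays of pair 3 stood apart in RNA quality: control probe sets at the 3' end of transcripts exceeded those at the 5' end by a mean log2 ratio of 1.33 on deletion array 3 and 1.499 on wild-type array 3, against 0.54 to 0.60 on the other 4. The changes of pairs 1 and 2 correlated across genes (r = 0.48), whereas those of pair 3 correlated with neither (r = 0.03 with pair 1 and -0.09 with pair 2, 5415 genes that are not independent replicates). Values are given per pair for many results, and some pooled medians of gene lists rest on pair 3. The part of RNA quality in the differences between pairs was not tested.

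The labels were first checked against JHD2 itself (YJR119C, chromosome X). Its signal was 3.22, 3.41 and 0.230 on the deletion arrays and 138.2, 118.8 and 139.8 on the wild-type arrays. All 3 deletion arrays lay below background and all 3 wild-type arrays above it, so that JHD2 was at least 11.1-fold lower in the jhd2 deletion (limma, adjusted p = 3.96e-05). Both strains had the expression type of alpha cells, which the labels do not state. The alpha-factor gene MF(ALPHA)1 had a signal of 6529, 6919 and 5932 in the deletion and 5786, 5520 and 6343 in the wild type. STE2, which encodes the receptor made by a cells, had 52.8, 50.4 and 70.6 in the deletion and 42.0, 50.9 and 73.6 in the wild type. MET17, the gene also called MET15, had 2808, 2721 and 2712 in the deletion and 2833, 2858 and 2865 in the wild type. LEU2, LYS2 and URA3, whose alleles are deleted in both strains, stayed at or below a signal of 46.2 on every array. HIS3 had 1478, 1666 and 1356 in the deletion and 1669, 1693 and 1408 in the wild type, and whether its probe set lies outside the part missing in his3∆1 was not examined. TRP1 has no matched probe set.

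Few transcripts differed. Of 5415 genes, 4 were called, all of them lower in the jhd2 deletion and none higher (0.0739% of those tested). They were JHD2, the asparaginase gene ASP3-1 and the open reading frames YLR156W and YLR157W-E, and the last 3 lie together on chromosome XII. At an unadjusted p under 0.05 there were 237 genes (4.38%), 89 higher (1.64%) and 148 lower (2.73%). The 95% confidence interval of the change lay within 2-fold in either direction for 5253 genes (97.0%), and the median SE was 0.11 on the log2 scale. For most genes the arrays thus bound the change to less than 2-fold without showing it to be absent. Without the block, 2 genes were called (0.0369%), JHD2 and ASP3-1. Leaving out pair 1 or pair 2 left JHD2 alone (0.0185%), and leaving out pair 3 gave 220 calls (4.06%), which are described with the ribosomal protein genes. A covariate for the 3'/5' ratio gave 5 calls (0.0923%): RPL41A, PDC5 and YLR264C-A were higher (0.0554%), JHD2 and ASP3-1 lower. Estimated array weights, which favoured pair 1 (4.01) over pairs 2 (1.23) and 3 (0.357), gave 680 calls (12.6%), 295 higher (5.45%) and 385 lower (7.11%).

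ASP3-1 (YLR155C) encodes the cell-wall asparaginase, which releases ammonia from extracellular asparagine and is known to be induced when nitrogen is scarce. Its signal was 1726, 1837 and 1906 in the jhd2 deletion and 4474, 4299 and 3258 in the wild type. The groups did not overlap, and every deletion array was below every wild-type array. Over all 5415 tested genes the groups did not overlap for 259, with 193 lower and 66 higher in the deletion. The mean signal was 0.455 of that in the wild type, with a log2 change of -1.12 ± 0.12 (SE, n = 3 pairs, 95% interval -1.39 to -0.86, adjusted p = 0.00984). The change was smaller in pair 3 (-0.77) than in pairs 1 and 2 (-1.37 and -1.23). The call was lost without pair 1 (adjusted p = 0.125) or pair 2 (0.130) and held without pair 3 (0.000917), over a range of 5.82e-06 to 0.410 in the 33 alternatives.

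The probe set for ASP3-1 is of a kind that matches related sequences, so the repeated ASP3 copies cannot be separated. ASP3-2, ASP3-3 and ASP3-4 have no probe set of their own in the annotation. YLR156W and YLR157W-E, 2 uncharacterised open reading frames among these copies, are read by shared probe sets as well. YLR157W-E had a signal of 16.9, 29.9 and 72.0 in the jhd2 deletion and 103.4, 123.6 and 160.5 in the wild type, a change of -1.94 ± 0.26 (adjusted p = 0.0418). These groups did not overlap. A second probe set for the same gene was at background, 1.78, 0.203 and 4.61 in the deletion against 2.10, 0.252 and 0.989 in the wild type, and gave no usable change. YLR156W had 17.0, 18.0 and 70.2 in the jhd2 deletion and 67.2, 83.2 and 158.1 in the wild type, a change of -1.79 ± 0.24 (adjusted p = 0.0418). Here deletion array 3 exceeded wild-type array 1, and the difference shows within pairs, at -1.98, -2.21 and -1.17. Deletion array 1 was close to its background of 16.7 for both genes. Neither gene was called without the block, at an adjusted p of 0.836 for YLR157W-E and close to 1 for YLR156W.

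**Figure D1:**
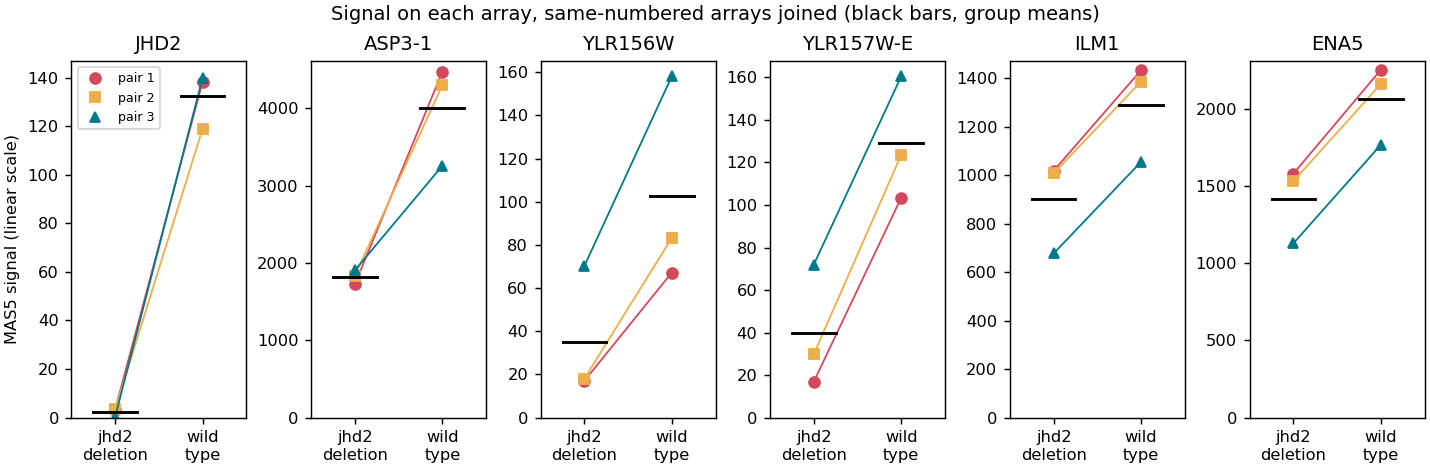
MAS5 signal (linear scale, each panel from 0) of 6 genes on the 3 jhd2 deletion and the 3 wild-type arrays, with arrays of the same replicate number joined and black bars at the group means. In all 6 panels each line ends higher in the wild type, and the groups overlap for YLR156W only. The 6 genes are among the 12 with the smallest p on the lower side. Of all 5415 tested genes, 193 were lower without overlap.

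Apart from YLR156W and YLR157W-E, no tested neighbour of ASP3-1 on chromosome XII was called. Neighbours were counted among protein-coding genes only. Other kinds of gene between them are left out of the order, and distances were not examined. Of the 10 protein-coding genes on each side of ASP3-1, 9 had a tested probe set of their own or a shared one. The 6 tested genes from PEP3 to RNH203, on the side that leads away from the repeat, gave changes between -0.22 ± 0.14 for PCD1 and 0.23 ± 0.12 for STM1. ACS2 encodes an acetyl-CoA synthetase and lies 5 protein-coding genes away. It had 3033, 3480 and 2919 in the deletion and 2751, 3037 and 3214 in the wild type, a change of 0.07 ± 0.10. YLR154C-H, next to ASP3-1 in that order, had 51.6, 53.0 and 97.8 in the deletion and 67.4, 81.0 and 129.2 in the wild type. It is read by a shared probe set, and whether that signal comes from within the repeat was not examined. Its change of -0.47 ± 0.19 had an unadjusted p of 0.0346 and an adjusted p of 0.876, and the groups overlapped. ASP3-1 belongs to the genes under nitrogen catabolite repression, which were listed with their GATA factors. Of 31 tested, 15 were above 0, the median change was -0.00 against -0.04 over all tested genes, and only ASP3-1 was called. The ammonium permease gene MEP1 changed by -0.33 ± 0.11 (adjusted p = 0.876), the aminotransferase gene UGA1 by -0.20 ± 0.11 and the allantoinase gene DAL1 by 0.35 ± 0.22, none of them called.

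Next to the deleted gene, ILM1 (YJR118C), which has been linked to the maintenance of mitochondrial DNA, had a signal of 1017, 1007 and 676.7 in the jhd2 deletion and 1432, 1386 and 1055 in the wild type. The change of -0.53 ± 0.09 was similar in the 3 pairs, at -0.49, -0.46 and -0.64. It did not pass the test (adjusted p = 0.115), although an array of the deletion was never above one of the wild type. The other neighbours differed less. TDA4 changed by -0.12 ± 0.11, STE24, the gene of a CAAX protease, by -0.04 ± 0.09, ATP2, a subunit of the mitochondrial ATP synthase, by 0.12 ± 0.09 and IBA57 by 0.00 ± 0.11. DMO1 has no matched probe set.

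**Figure D2:**
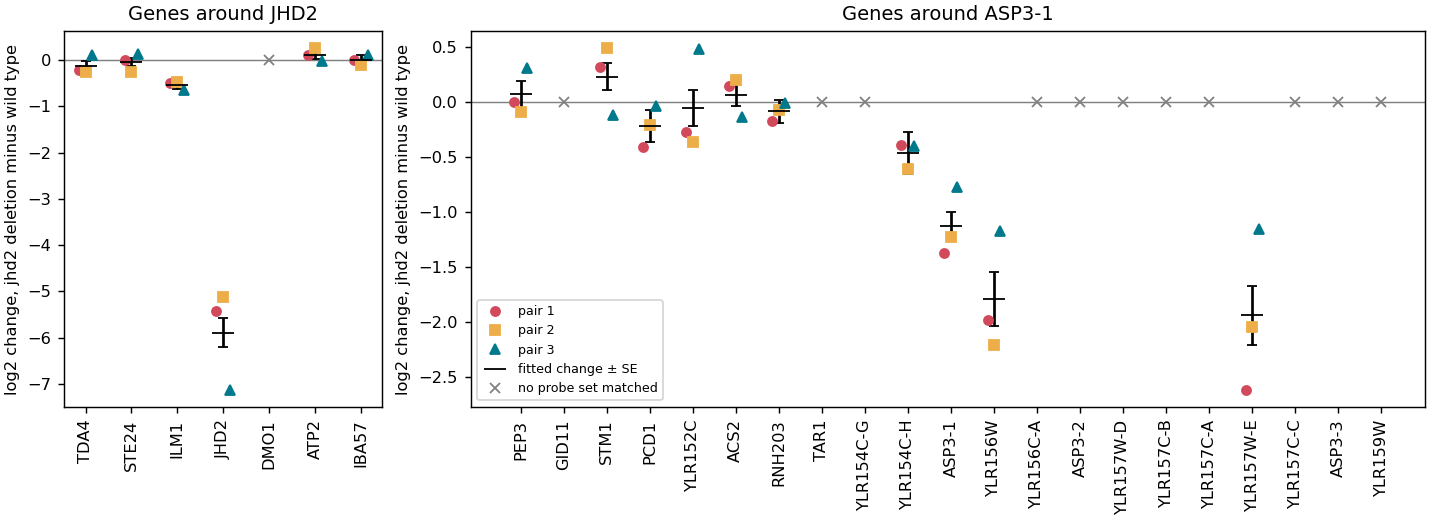
Log2 change, jhd2 deletion minus wild type, of the protein-coding genes around JHD2 (left) and ASP3-1 (right) in chromosome order, not to scale. There is 1 symbol per pair, with the fitted change and its SE in black and crosses for genes with no matched probe set. JHD2 and ILM1 on the left, and ASP3-1, YLR156W and YLR157W-E on the right, lie below their neighbours in all 3 pairs. The size of the JHD2 change rests on deletion arrays below background, and array 3 stands at the floor of 1.

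The 12 genes with the smallest unadjusted p on the lower side include the 4 called ones and ILM1. Of the others, ENA5, one of the tandem genes for plasma-membrane sodium pumps, had 1579, 1531 and 1128 in the jhd2 deletion and 2251, 2159 and 1766 in the wild type, a change of -0.55 ± 0.09 that missed the threshold (adjusted p = 0.115). That probe set is shared with related sequences. The second probe set of ENA5 went the other way, with 396.5, 304.6 and 269.9 in the deletion and 350.9, 311.0 and 225.9 in the wild type, a change of 0.13. SOR2, a sorbitol dehydrogenase gene near a chromosome end that also has a shared probe set, had 155.3, 97.0 and 180.2 in the deletion and 282.5, 239.0 and 214.2 in the wild type. Its groups did not overlap (change -0.80 ± 0.18, adjusted p = 0.774). The uncharacterised gene YER186C (-0.49 ± 0.11), the mitochondrial ribosomal protein gene MRPL8 (-0.38 ± 0.08), COQ1 of coenzyme Q synthesis (-0.28 ± 0.08), DID2 of endosomal sorting (-0.28 ± 0.08) and the Golgi protein gene TVP38 (-0.33 ± 0.09) complete the 12, and none of these 5 was called.

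On the higher side none of the 12 genes with the smallest unadjusted p was called, and several of them have low signal or repeated sequence. PHO92, which encodes a reader of methylated RNA, had 21.6, 14.7 and 32.3 in the jhd2 deletion and 8.52, 5.88 and 13.8 in the wild type. Wild-type arrays 1 and 2 were below background and deletion arrays 1 and 2 just above theirs, so its fitted change of 1.30 ± 0.32 (adjusted p = 0.876) rests partly on values below background. YAR009C, of a Ty retrotransposon, had 6543, 1450 and 858.9 in the deletion and 2303, 1113 and 136.9 in the wild type, a spread within each group as wide as the difference between them. YLR264C-A, an uncharacterised reading frame, had 925.4, 1052 and 663.4 in the deletion and 523.2, 503.9 and 539.1 in the wild type (change 0.73 ± 0.16, adjusted p = 0.774). These groups did not overlap. The remaining genes were YIR042C (0.84 ± 0.20), SEO1, a permease gene (0.73 ± 0.22), YDR261C-D, of a Ty element (0.71 ± 0.21), HIM1 (0.58 ± 0.18), the ribosomal protein gene RPS19A (0.56 ± 0.13), the pyruvate decarboxylase gene PDC5 (0.53 ± 0.16), PET18 (0.48 ± 0.15), the Ty gene YAR010C (0.33 ± 0.10) and BNA4 of kynurenine metabolism (0.30 ± 0.09).

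Over all tested genes, 2014 of 5415 changes were above 0 (37.2%), against which the counts of the gene lists are to be set. The genes of the H3K4 methylation machinery come first. Of the 8 COMPASS genes, 1 was above 0 and none was called, with a median change of -0.17 against -0.04 over all tested genes. The median was -0.14, -0.18 and -0.15 in pairs 1 to 3. After quantile normalization it was -0.10, with -0.04, -0.03 and -0.24 in the pairs, lowest in pair 3. SET1 had 545.1, 644.8 and 701.2 in the jhd2 deletion and 626.6, 635.5 and 549.1 in the wild type, a change of 0.06 ± 0.31, and the groups overlapped. The subunit genes SHG1 (-0.24 ± 0.15), SWD3 (-0.21 ± 0.15), SDC1 (-0.20 ± 0.10) and SWD2 (-0.17 ± 0.08) had adjusted p = 0.876 each. The other JmjC-domain genes, which include demethylases of H3 lysine 36, were at -0.09 ± 0.11 for RPH1, -0.05 ± 0.12 for ECM5, 0.04 ± 0.16 for GIS1 and -0.02 ± 0.10 for JHD1. Of 15 genes of the H3K4 methylation reading complexes 3 were above 0 (median -0.09), and of 10 genes of H2B ubiquitination and the Paf1 complex, which act before Set1, 4 were above 0 (median -0.02). Of 12 genes of silencing factors and Dot1, 5 were above 0 (median -0.04). SIR2, the histone deacetylase of silent chromatin, had 336.2, 404.4 and 448.0 in the deletion and 401.1, 507.8 and 536.7 in the wild type, a change of -0.28 ± 0.11 (adjusted p = 0.876) that was negative in the 3 pairs.

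The strongest signals of the array separated the pairs from each other. Of 127 cytosolic ribosomal protein genes 125 were above 0 in the fitted change (median 0.25) and none was called. By pair the median was 0.36, 0.55 and -0.19, with 126, 126 and 8 genes above 0. RPL28 had 7153, 8841 and 6179 in the jhd2 deletion and 5182, 5807 and 6398 in the wild type, so that deletion arrays 1 and 2 were above the wild type and deletion array 3 was below wild-type array 3. The same order of pairs held for 22 genes of glycolysis and fermentation (median 0.37, 0.47 and -0.13) and for 9 genes of histones (0.27, 0.48 and -0.14). It also held for the decile of tested genes with the highest wild-type signal, whose median was 0.18, 0.29 and -0.14. After quantile normalization, which gives every array the same distribution of signals, the median of the ribosomal protein genes was 0.02, with 79, 82 and 56 above 0 in pairs 1 to 3. Those of glycolysis and histones were then 0.03 and -0.03. The 99th percentile of signal was 8029, 9055 and 6436 on deletion arrays 1 to 3 and 6304, 6257 and 7390 on the wild-type arrays.

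Without pair 3, 201 of the 220 called genes were higher in the deletion (3.71%) and 19 lower (0.351%). Of the 201, 111 were cytosolic ribosomal protein genes and 13 genes of glycolysis and fermentation, 198 lay in the highest decile of wild-type signal, and 11 were above 0 in pair 3. None of the 201 was called when pair 3 was left out after quantile normalization, which called JHD2, ASP3-1, YLR156W and YLR157W-E only.

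**Figure D3:**
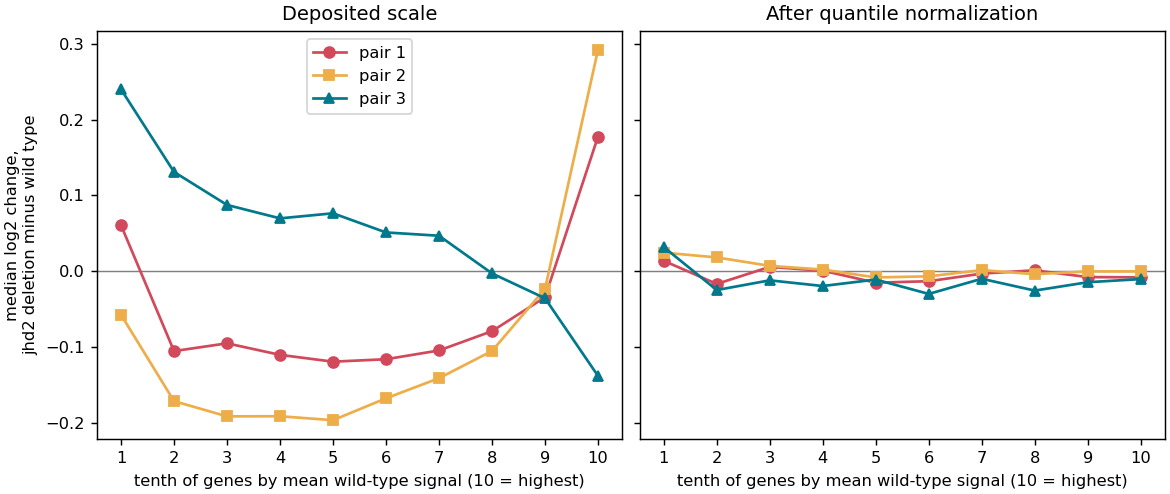
Median log2 change, jhd2 deletion minus wild type, by decile of tested genes in order of mean wild-type signal, with 1 line per pair, on the deposited scale (left) and after quantile normalization (right). On the left the highest decile is at 0.18 and 0.29 in pairs 1 and 2 and at -0.14 in pair 3. On the right the median furthest from 0 is 0.032, in the lowest decile of pair 3.

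General stress and storage carbohydrate genes also differed between pairs, and here the difference remained after quantile normalization. The 25 genes had a median change of -0.28 and -0.32 in pairs 1 and 2 and 0.53 in pair 3 (-0.20, -0.22 and 0.47 after normalization), with 2, 1 and 23 genes above 0, and none was called. DDR2, a stress-induced gene, had 719.2, 210.3 and 645.2 in the jhd2 deletion and 1013, 414.7 and 447.4 in the wild type. The glycogen genes GSY1 (synthase), GLC3 (branching enzyme) and GPH1 (phosphorylase) were chosen as examples after their values were seen. GSY1 had 867.7, 324.6 and 2694 in the deletion and 1520, 431.7 and 1873 in the wild type. GLC3 had 1083, 431.9 and 2408 in the deletion and 1719, 649.9 and 1259 in the wild type, and GPH1 had 493.3, 227.7 and 1117 in the deletion and 635.4, 271.3 and 526.4 in the wild type. For the 4 genes the deletion was lower in pairs 1 and 2 and higher in pair 3, and both arrays of pair 2 were below those of pair 1.

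Mitochondrial ribosomal protein genes were mostly below 0. Of 71, 8 were above 0, the median change was -0.11, and 33 were lower in all 3 pairs (46.5%), against 1116 of all tested genes (20.6%). The median was -0.05 after quantile normalization, with 28, 32 and 18 of the 71 above 0 in pairs 1 to 3, and none was called. On the deposited scale genes of like signal were also below 0. The median wild-type signal of the list was 766.2, and the decile of tested genes from 600.3 to 786.8 had a median change of -0.08. MRPL8 had 508.2, 514.4 and 517.9 in the jhd2 deletion and 619.2, 660.5 and 733.5 in the wild type, without overlap. Of 34 genes of the respiratory chain and ATP synthase 15 were above 0 (median -0.00), and of 16 citric acid cycle genes 4 were (median -0.01). ATP19, a small subunit of the ATP synthase, changed by -0.26 ± 0.08 (adjusted p = 0.876).

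Repeated genes near chromosome ends varied in both directions. Of 93 outermost open reading frames 60 were above 0 (median 0.07) and none was called. Their median was 0.00, -0.02 and 0.25 in pairs 1 to 3, and 0.01 without pair 3. Of the 9 tested COS and Y' helicase genes 4 were above 0, with COS8 at -0.56 ± 0.16, COS10 at -0.52 ± 0.17 and COS12 at 0.75 ± 0.42. COS8 had 305.3, 412.5 and 790.9 in the deletion and 654.9, 614.2 and 791.5 in the wild type, equal in pair 3. Of 5 flocculin genes with FLO8, 4 were above 0 (median 0.36). Their median was 0.20, 0.05 and 0.45 in pairs 1 to 3, and 0.12 without pair 3. FLO10, a cell-surface adhesion gene, had 67.6, 66.9 and 55.4 in the deletion and 51.4, 51.2 and 44.4 in the wild type, without overlap (change 0.37 ± 0.18, adjusted p = 0.876). Of 7 genes specific to a cells 6 were above 0 (median 0.32, and 0.12 after quantile normalization). Their summed signal was 297.0, 266.5 and 299.3 in the deletion and 246.8, 236.4 and 290.5 in the wild type, near the lower end of the scale. AGA2 was above background on 2 of 3 arrays in each group, and ASG7 on 1 deletion array and 2 wild-type arrays. The fission yeast probe sets, which have no target in these cells, showed a median change of 0.50, 0.19 and 0.00 in pairs 1 to 3. The part of this background in the values of genes of low signal was not tested.

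In the metabolic and cell-cycle lists no gene was called. Of 15 thiamine genes, PET18 among them, 12 were above 0 (median 0.09, and 0.13 after quantile normalization). Of 22 genes of G2/M and M/G1, 17 were above 0 (median 0.06, and 0.11 after quantile normalization), and of 25 genes of G1 and S phase 11 were (median -0.01). The medians were 0.05 for 17 purine genes, 0.03 for 10 lysine genes, 0.02 for 27 ergosterol genes, 0.05 for 20 phosphate genes, -0.00 for 29 iron genes, -0.06 for 17 phospholipid genes, -0.07 for 28 sulfur and methionine genes, 0.01 for 35 genes of general amino acid control and -0.06 for 33 proteasome genes. ECM22, a transcription factor gene of sterol synthesis, changed by 0.31 ± 0.10, the glycine decarboxylase gene GCV1 by -0.35 ± 0.15 and the B-type cyclin gene CLB6 by 0.48 ± 0.23. Of 39 genes of meiosis and sporulation 24 were above 0 (median 0.09), with NDT80, the activator of middle meiotic genes, at -0.58 ± 0.28. The median of this list was 0.08, -0.15 and 0.17 in pairs 1 to 3, and 0.00 without pair 3.

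**Figure D4:**
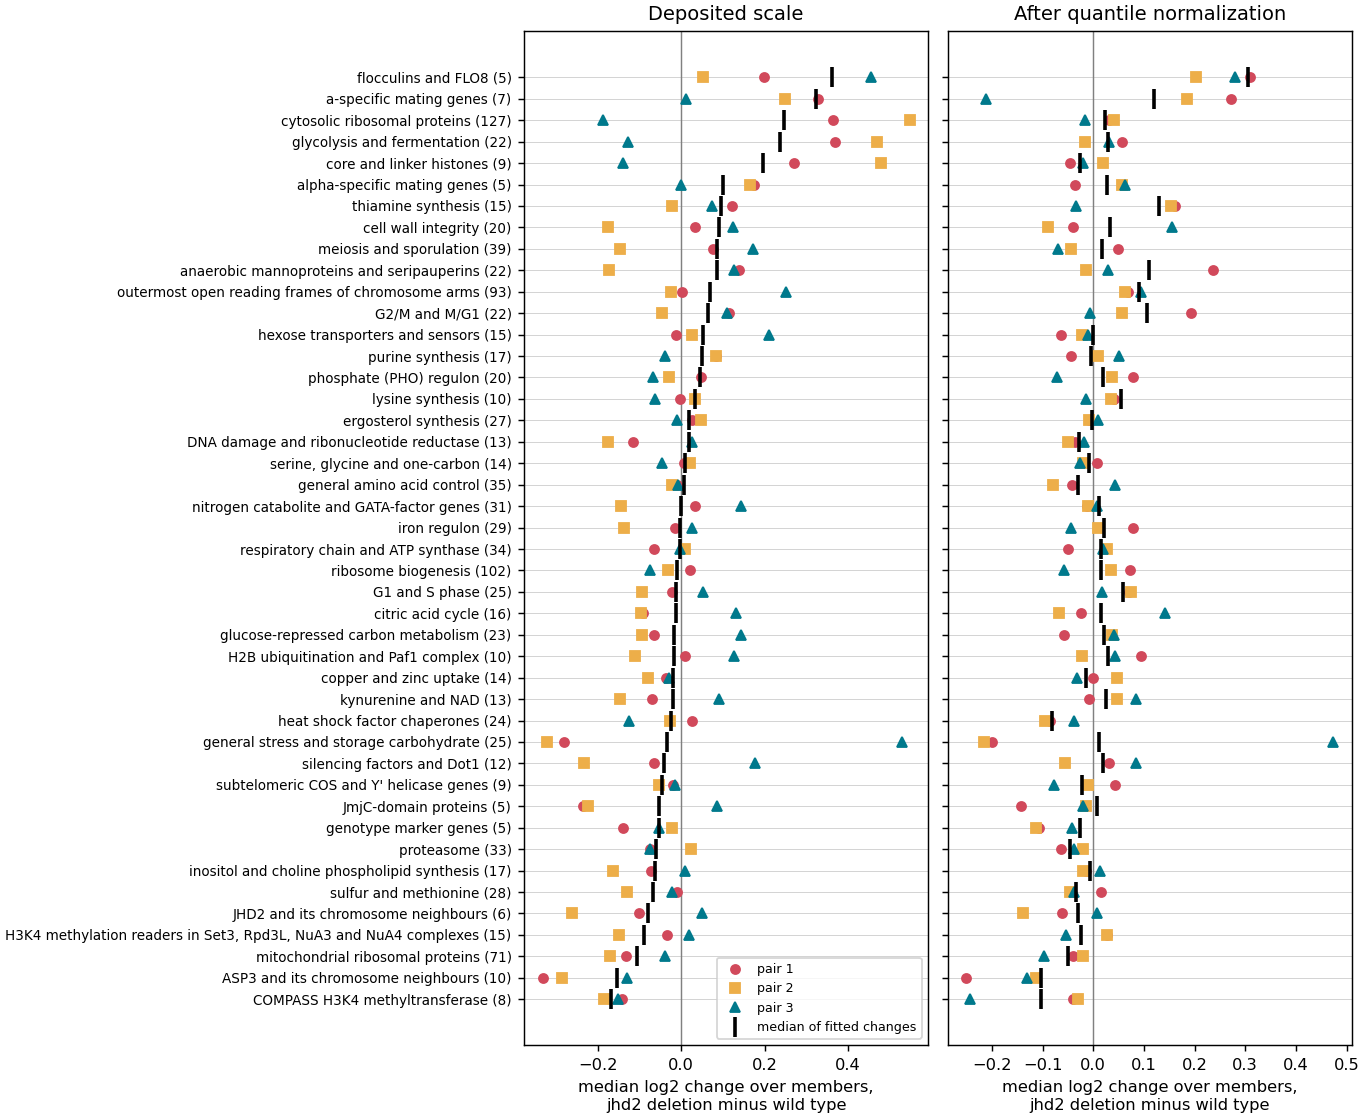
Median log2 change, jhd2 deletion minus wild type, over the tested members of each gene list (number in parentheses), with 1 symbol per pair and a black bar at the median of the fitted changes, on the deposited scale (left) and after quantile normalization (right). Ribosomal protein, glycolysis and histone genes lie near 0 on the right, while stress genes remain split between pairs 1 and 2 and pair 3.

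The overexpression experiment, with its own 2 wild-type arrays, gave other arrays for the genes lower in the jhd2 deletion. Both altered strains carry the jhd2 KanMX disruption by their labels. The 3'/5' ratio of control probe sets moved with the group there, at 1.44 and 1.43 on the overexpression arrays and 0.88 and 0.66 on their wild-type arrays (log2), and its part in the changes of that strain was not tested. LEU2 went against the labels, with 6895 and 6823 in the overexpression strain and 6875 and 7294 in its wild type, although the labels give leu2-0 for the first and le2∆0 for the second. JHD2 itself had 5207 and 6237 in the overexpression strain and 226.3 and 210.6 in its wild type. ASP3-1 had 2234 and 1903 in the overexpression strain and 4527 and 4910 in its wild type, without overlap. Its change of -1.19 ± 0.15 (adjusted p = 0.000911) did not differ detectably from that in the deletion (difference 0.07 ± 0.19, adjusted p = 0.837). YLR156W changed by -1.56 ± 0.30 and YLR157W-E by -1.56 ± 0.32 in the overexpression strain, with adjusted p of 0.00762 and 0.0105. Without the block ASP3-1 was still called there (adjusted p = 0.0340), whereas YLR156W (0.196) and YLR157W-E (0.148) were not.

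ILM1 and ENA5, which missed the threshold in the jhd2 deletion, were called lower in the overexpression strain at -0.71 ± 0.11 (adjusted p = 0.00232) and -0.84 ± 0.11 (adjusted p = 0.00118), and SOR2 was called at -1.21 ± 0.22 (adjusted p = 0.00673). Without the block these 3 were not called (adjusted p of 0.136, 0.0579 and 0.0579). The ENA5 value is of its shared probe set, and the second ENA5 probe set changed by 0.13 in the deletion. Of the 12 genes with the smallest p on the lower side of the deletion, 10 were below 0 in the overexpression strain. Of the 12, 6 were called lower and 2 higher, against 2703 below 0, 623 called lower (11.5%) and 482 called higher (8.90%) of the 5415 genes. The 6 are ILM1, ENA5, SOR2 and the ASP3-1, YLR156W and YLR157W-E of the repeat, which are not separate results. ILM1 lies beside the jhd2 disruption that both strains carry. The 2 called higher are JHD2 itself and COQ1, which went opposite ways. COQ1 changed by -0.28 ± 0.08 in the deletion and by 0.33 ± 0.09 in the overexpression strain (limma, adjusted p = 0.0328). Its difference was -0.61 ± 0.12 (adjusted p = 0.0159). Without the block only ASP3-1 of the 6 was called. Both changes come from the same fit and share each gene's residual variance. Genes chosen for a small p in the deletion are therefore more readily called in the overexpression strain, in either direction. The shares over all 5415 genes are thus not a matched baseline for the 12. The shared probe set of YLR154C-H, whose source was not placed, went opposite ways, at -0.47 ± 0.19 in the deletion and 0.67 ± 0.23 in the overexpression strain. The difference passed the test (-1.14 ± 0.30, adjusted p = 0.0419), and its adjusted p was 0.406 without the block.

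**Figure D5:**
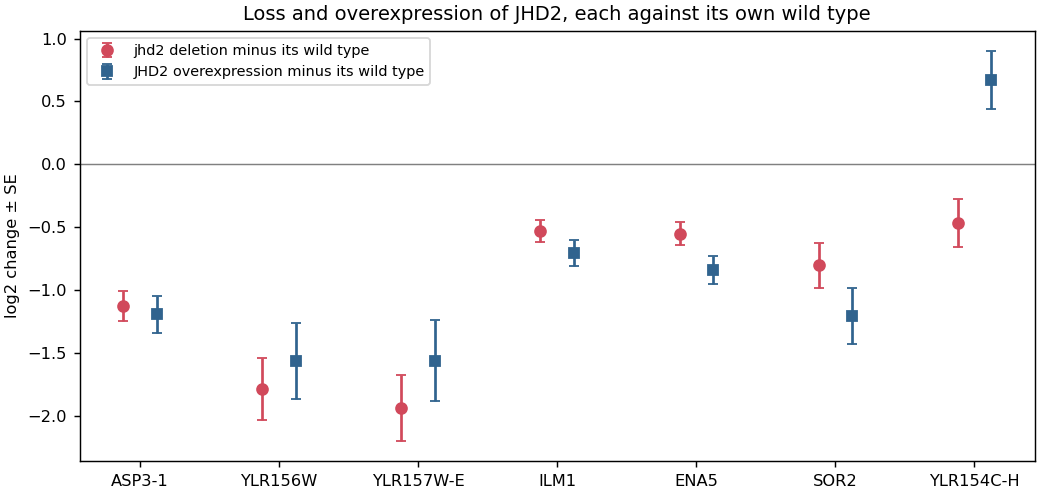
Log2 change with SE of 7 genes in the jhd2 deletion (circles) and in the JHD2 overexpression strain (squares), each minus its own wild type. The first 6 genes are lower in both strains, and YLR154C-H differs in sign. Those 6 are the genes, of the 12 with the smallest p on the lower side, that were called lower in the overexpression strain. Their shared sign is therefore no separate result. COQ1, also of the 12, was called higher in the overexpression strain and is not shown. ENA5 is shown by its shared probe set only.

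Across all genes the change in the jhd2 deletion correlated with that in the overexpression strain at r = -0.10 (-0.04 after quantile normalization, 5415 genes that share an array design and are not independent). The 2 changes differed for 544 genes (10.0%) with the block and for 5 without it. The 3'/5' ratio, which differs between the overexpression arrays and their wild type, enters this difference, and its part was not tested. With the set1 deletion the correlation was 0.14 (0.09 after quantile normalization). The strains of that experiment express the a-cell genes: STE2 had 3262 and 2939 in the set1 deletion and 3355 and 2944 in its wild type. ASP3-1 had 3085 and 4522 in the set1 deletion and 3615 and 4870 in its wild type, a change of -0.17 ± 0.15. The difference from the jhd2 deletion was -0.96 ± 0.19 and missed the threshold (adjusted p = 0.0944). The change in the jhd2 deletion differed from that in the set1 deletion for 10 genes (0.185%). Among them were JHD2, SET1 and MET17, which the set1 strain carries as met15-0. The alpha-specific genes AFB1 and MF(ALPHA)1 were also among the 10, although the set1 strains express the a-cell genes. LYS2, not among the 10, had 1307 and 1567 in the set1 deletion and 10.0 and 2.94 in its wild type (limma, adjusted p = 0.0111). The part of marker genotype and cell type in the 10 was not tested.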

How the data were processed

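RNA from each culture (10 µg of total RNA) was hybridised to 1 array. Each deposited value is a linear intensity that the authors computed for a probe set with MAS5, per the submitters' processing notes. The sources used here give neither its version and scaling target nor the growth medium. After trimming 2% at either end, array means were 500.2 to 500.3, so the deposited arrays share a common scale. Precision is limited by the number of arrays.

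The table has 10928 probe sets. Through GEO's platform annotation, 5498 name 1 gene of S. cerevisiae (5449 genes), 1746 are for S. pombe, 1 names several genes and 3683 none. Symbols and gene order came from the RefSeq table of assembly R64, and the order counts protein-coding genes only. The brightest probe set was used for 47 genes with several. Genes with a mean log2 value no higher than the S. pombe 95th percentile were removed (34), which left 5415, of which 112 have shared probe sets. An "at least" fold is measured against the higher of that percentile on each array and the probe set's own signal.

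Values under 1 were set to 1 and put on the log2 scale. The model was fitted in limma 3.58.1 (R 4.3.3) to all 14 arrays with 6 group means, the replicate number within each experiment as a block and a mean-variance trend (5.69 prior and 4 residual degrees of freedom), two-sided, adjusted by Benjamini-Hochberg over all tested genes, and was tested on simulated data. The numbers were taken as pairs from the labels. Across genes, deviations from the group mean correlated at 0.64, 0.62 and 0.69 between arrays of the same number and at -0.65 to 0.30 between other numbers.

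Genes were named by a rule: JHD2 with 3 genes on each side, the genotype markers, every called gene, the 12 smallest p in each direction among genes that moved the same way in all pairs and were above background on every array of a group, ASP3-1 with 10 genes on each side and the other ASP3 copies, and up to 4 members of each list. The comparison, the lists and the rule were chosen with earlier results of these data known, so lists are described by counts and medians without a test. The list of Ty elements matched no symbol. Alternatives were other normalizations, filters, pseudocounts, blocks and array weights, a covariate for the 3'/5' ratio, the mean of probe sets and leaving out arrays.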

Additional observations from a re-analysis of the deposited data

Results flagged for a closer look

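The change in the jhd2 deletion differed, by a test of the difference itself, from the change in the JHD2 overexpression strain for 544 genes and from the change in the set1 deletion for 10 genes. For JHD2 itself the difference was -10.60 from the overexpression change and -6.17 from the set1 deletion change, on the log2 scale. JHD2 lay below background on all 3 deletion arrays, with array 3 at the floor of 1, so the size of both differences rests on values below background and only a lower bound on the loss of JHD2 signal is measured. The first of these counts follows the fit with the replicate block and was 5 without it.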

How the results depend on the processing

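The 4 calls of the jhd2 deletion against its wild type became 2 without the replicate block, 1 with the 6 arrays alone, 1 without the intensity trend, 2 with the mean of probe sets and 680 with array weights (295 higher, 385 lower). The weights were 4.01, 1.23 and 0.357 for pairs 1 to 3, and their estimation stopped before convergence. Leaving out arrays gave 1 to 220 calls. The highest count was without pair 3, and the highest without the block, 24, was without deletion array 3. Leaving out any array of the other experiments gave 2. The covariate for the 3'/5' ratio gave 5 calls, with RPL41A, PDC5 and YLR264C-A higher and JHD2 and ASP3-1 lower. Combinations chosen after seeing the data gave 1 call after quantile normalization with no replicate block and, after quantile normalization, 1, 1 and 4 without replicates 1, 2 and 3. Of 33 alternatives, JHD2 was called in 33, ASP3-1 in 22, YLR157W-E in 10, YLR156W in 9 and ILM1 and ENA5 in 2 each, and no direction reversed. Genes differing from the overexpression change numbered 5 with no replicate block, 956 after quantile normalization and 142 to 1033 with a pair left out. Those differing from the set1 deletion change numbered 4 with no replicate block, 20 after quantile normalization and 4 to 8 with a pair left out. The causes of these shifts were not tested. Signals near background and shared probe sets limit YLR156W, YLR157W-E and PHO92.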
